A study of Mus musculus with 168 samples.

Results

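Cortical messenger RNA of mice with the Q80 allele of Htt was compared with that of mice with the Q20 allele at 2 months of age. The members were all libraries whose titles give these alleles and this age, 8 for each, which makes 16 of the 168 libraries of the series. Both groups were heterozygous Htt knock-ins on the C57BL/6 strain, and the number in an allele's name is its nominal count of CAG repeats. Both groups therefore carry a knock-in allele, so the comparison is between alleles and not with an unmodified gene. Wild-type (WT) mice of the same strain and age, 8 libraries, served as a second control. The Q80 group held 3 libraries labelled female and 5 labelled male, and the Q20 and WT groups held 4 of each. Per the labels Q80 mice shared cages with Q80 mice, and Q20 and WT mice with Q20 mice, so housing and allele cannot be told apart. The labels do not say that each library came from a separate animal. The p-values measure the spread between libraries, in the main fit all 56 of 2 months in every genotype, and this spread may be technical. The polyA-selected RNA gave between 29402311 and 41018997 counts per library assigned to genes.

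Htt encodes huntingtin, a large scaffold protein of vesicle transport and autophagy. A long CAG repeat in its first exon lengthens a run of glutamines near the start of the protein and causes Huntington's disease, in which neurons of the striatum and the cortex are lost. A knock-in allele is transcribed from the gene's own locus, on mouse chromosome 5, in the cell types that use Htt. A short repeat such as that of Q20 lies in the range of unaffected people. The coding start of the mouse transcript Htt-201 (GENCODE M21) is shown because it holds the stretch that the alleles replace or lengthen. Capitals mark its run of 7 glutamine codons, 6 CAG and 1 CAA, which opens at codon 18.
Htt-201: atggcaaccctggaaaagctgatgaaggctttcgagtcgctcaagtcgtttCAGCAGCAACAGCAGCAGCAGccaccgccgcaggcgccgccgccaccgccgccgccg

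The level of Htt itself (ENSMUSG00000029104, GRCm38 chromosome 5 from 34761740 to 34912534, plus strand) did not separate the alleles. Levels are given as CPM, the counts of a gene relative to the total of its library, after TMM scaling, which evens out libraries of different composition. In Q20, Htt ran from 175 to 231 CPM with a median of 209, and in WT from 131 to 218 with a median of 202. In Q80, 6 libraries lay between 207 and 240 CPM, while female 3 stood at 112 and male 5 at 115. Those low Q80 libraries lay under every Q20 library, and the other 6 lay within or just above the Q20 range. The difference was -0.08 ± 0.11 on the log2 scale (± is the standard error, SE, throughout; edgeR adjusted p = 0.70), and 0.11 in a fit without the 4 low-correlating libraries described next, which include both low ones (adjusted p = 0.52). Gene counts do not read the length of the repeat, so this level checks no allele label.

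The libraries held the markers of cortical neurons, and 4 Q80 libraries differed from the rest in ways that touch the results. Summed over 12 markers of glutamatergic neurons, the level was 5704 to 6361 CPM in Q20 and 5798 to 6474 CPM in Q80. Q80 female 3 and male 5 were among 4 libraries with the lowest median Spearman correlations with other libraries of 2 months (0.9758 and 0.9795). The other two were Q92 male 3 (0.9788) and WT female 2 (0.9848). In all 4, transcripts were shifted by length. With genes split into 5 classes of equal number by transcript length, the median log2 difference from the typical library of the age, longest class minus shortest, was -0.87 in Q80 female 3, -0.77 in Q80 male 5, -0.79 in Q92 male 3 and -0.69 in WT female 2. It was -0.10 to 0.08 in Q20, -0.06 to 0.06 in the other 6 Q80 libraries and -0.14 to 0.06 in the other 7 of WT. Fits without the low-correlating libraries leave out all 4. Q80 male 1 gave no Y signal, with Ddx3y, Eif2s3y and Uty at 0 CPM, and 1.02 CPM of Xist, the RNA of the inactive X. The other males had 42 to 70.2 CPM of Ddx3y and the females 567 to 1290 CPM of Xist, so this library matched neither label. The token starting with B in its library name is that of the Q20, Q80 and WT females of 2 months. The other males of these groups have a different one. The labels do not explain this token, and the library was kept as male, as labelled, in fits with a sex term. Q80 male 4 was high in markers of olfactory bulb, as given further on. Counts are given with and without the low-correlating libraries, and without male 4 for some of the lists and genes. Without male 4, Psmb9 and Ly6a, of lists not described here, also passed.

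**Figure D1:**
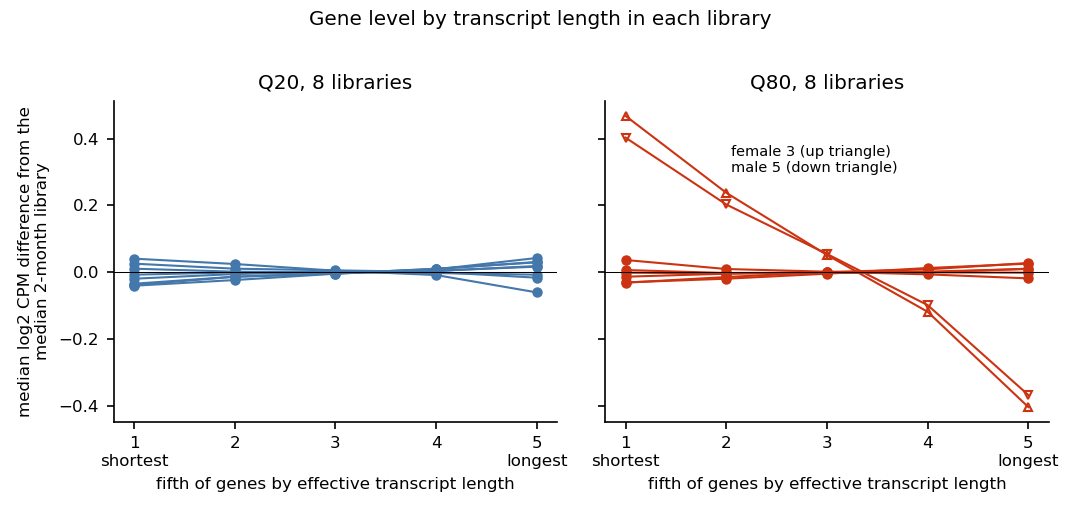
Median log2 difference in CPM from the median 2-month library (y axis), for genes in 5 classes of effective transcript length (x axis, shortest to longest), with 1 line per library. The Q20 lines and 6 of the 8 Q80 lines stay near 0, while Q80 female 3 and male 5 run from high in short transcripts to low in long ones.

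Few genes passed the test between Q80 and Q20. With a threshold of 0.05 on the Benjamini-Hochberg adjusted p of edgeR's quasi-likelihood test, 8 of 17194 genes passed (0.0465%). Of these, Galnt11, Gm10471 and the noncoding RNA Gm6410 rose (0.0174%), and Nub1, Prune2, Thbs2, Nyx and Birc7 fell (0.0291%). At an unadjusted p below 0.05 there were 3249 genes (18.9%). That number came to 1476 (8.56%) without the 4 low-correlating libraries, while 9 genes passed the adjusted threshold (0.0522%). Of the 8 genes, 7 passed in both fits. Galnt11 did not pass without the low-correlating libraries (0.21, adjusted p = 0.094), and Gm5067 and Lsmem1 were added. Without Q80 male 4 the number that passed was 96 (0.557%), 49 higher and 47 lower, with all 8 among them. With only the Q80 and Q20 groups in the fit, 2 genes passed, Gm6410 and Nyx. DESeq2 gave 73, with 4 of the 8 among them. The other four, Birc7, Gm10471, Gm6410 and Nyx, had no adjusted p from DESeq2. Without the low-correlating libraries and Q80 male 1 together, 3 passed, Gm5067, Gm10471 and Gm6410. Q80 and Q20 libraries did not overlap in 10 of all genes tested (0.0582%).

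Of the 8 genes, 3 lie on the chromosome of Htt, all on its centromeric side, and both signs occurred among them. Galnt11, an enzyme that starts O-linked sugar chains on proteins (ENSMUSG00000038072, chromosome 5 from 25221904 to 25265918), lies 9.54 Mb before Htt. It ran from 34.2 to 38.4 CPM in Q20 (median 37.2), from 39.8 to 44.8 in Q80 (median 43.4) and from 34.5 to 37.7 in WT (median 36.3). Every Q80 library lay above every Q20 and every WT library, and Galnt11 rose by 0.23 ± 0.05 (adjusted p = 0.013). Nub1, a protein that delivers the ubiquitin-like modifier NEDD8 for degradation (ENSMUSG00000028954, chromosome 5 from 24685532 to 24710378), lies 10.08 Mb before Htt. It ran from 87.5 to 90.9 CPM in Q20 (median 89.2), from 75.3 to 85.2 in Q80 (median 80.6) and from 85.9 to 97.7 in WT (median 89.5). No Q80 library reached the lowest Q20 or WT library, and Nub1 fell by 0.14 ± 0.03 on the log2 scale (adjusted p = 0.0076). Without the low-correlating libraries the difference of Nub1 was -0.12 (adjusted p = 0.042).

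Gm10471, a gene model without an established function (ENSMUSG00000073116, chromosome 5 from 26082574 to 26089291), had the largest log2 difference of the 8 and a low level. It ran from 0.0324 to 0.183 CPM in Q20 (median 0.0774), from 0.166 to 0.634 in Q80 (median 0.493) and from 0 to 0.149 in WT (median 0.102). The lowest Q80 value came from male 5 and was the one within the Q20 range. Gm10471 rose by 2.18 ± 0.45 (adjusted p = 0.025), and by 2.41 without the low-correlating libraries (adjusted p = 0.0058). The processed pseudogene Gm5067 (chromosome 5 from 26007027 to 26008035) ran from 0.215 to 0.528 CPM in Q20 (median 0.418) and from 0.3 to 2.13 in Q80 (median 1.29). Its Q80 female 3 (0.3 CPM) and male 5 (0.388 CPM) lay within the Q20 range and the other 6 above it. Gm5067 did not pass in all libraries (1.58, adjusted p = 0.086) and passed without those (1.89, adjusted p = 0.0014).

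Gm10471 sits in a cluster with similar gene models, of which Gm5862 and 5031410I06Rik were also tested. A stretch of 170 bases before their annotated starts is shown because it makes the likeness visible. The stretch is from RefSeq (GRCm38.p6, all on the minus strand of chromosome 5). It was lined up on bases that the copies share, so its distance from the annotated start differs between them. It spans chr5:26022972-26023141 for Gm5862, chr5:26089302-26089471 for Gm10471 and chr5:26105372-26105541 for 5031410I06Rik. Capitals mark the 8 positions at which the copies differ.
Gm5862: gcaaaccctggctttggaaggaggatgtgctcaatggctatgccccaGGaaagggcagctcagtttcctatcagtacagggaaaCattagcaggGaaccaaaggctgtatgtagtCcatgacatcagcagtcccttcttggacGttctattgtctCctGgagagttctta
Gm10471: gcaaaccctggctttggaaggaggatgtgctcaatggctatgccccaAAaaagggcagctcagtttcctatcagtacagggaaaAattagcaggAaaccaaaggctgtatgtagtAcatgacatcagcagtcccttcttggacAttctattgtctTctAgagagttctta
5031410I06Rik: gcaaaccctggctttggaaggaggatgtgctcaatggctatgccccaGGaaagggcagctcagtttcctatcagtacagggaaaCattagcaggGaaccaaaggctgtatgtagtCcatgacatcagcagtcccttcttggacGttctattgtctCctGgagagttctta

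Gm5862 and 5031410I06Rik were identical over this stretch and Gm10471 was 95.3% identical to each. Their transcripts share between 13% and 22.5% of their 50-base words in GENCODE M21, so reads may have been split between them and the level of each copy is uncertain. Gm5067 shares no such word with them (0.0%). Neither similar copy passed. Gm5862 ran from 0 to 0.323 CPM in Q20 and from 0.03 to 0.615 in Q80 (1.38, adjusted p = 0.15). 5031410I06Rik ran from 0.0335 to 0.234 CPM in Q20 and from 0.0899 to 0.954 in Q80 (1.46, adjusted p = 0.18). In both copies the low Q80 values were those of female 3 and male 5, and the ranges of the alleles overlapped. Not all gene models here were higher in Q80. Gm7361, which starts 8.5 Mb before Htt, differed by -0.74 (adjusted p = 0.15), and by -0.18 at 6 months and -0.47 at 10 months. Its likeness to these copies was not examined.

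**Figure D2:**
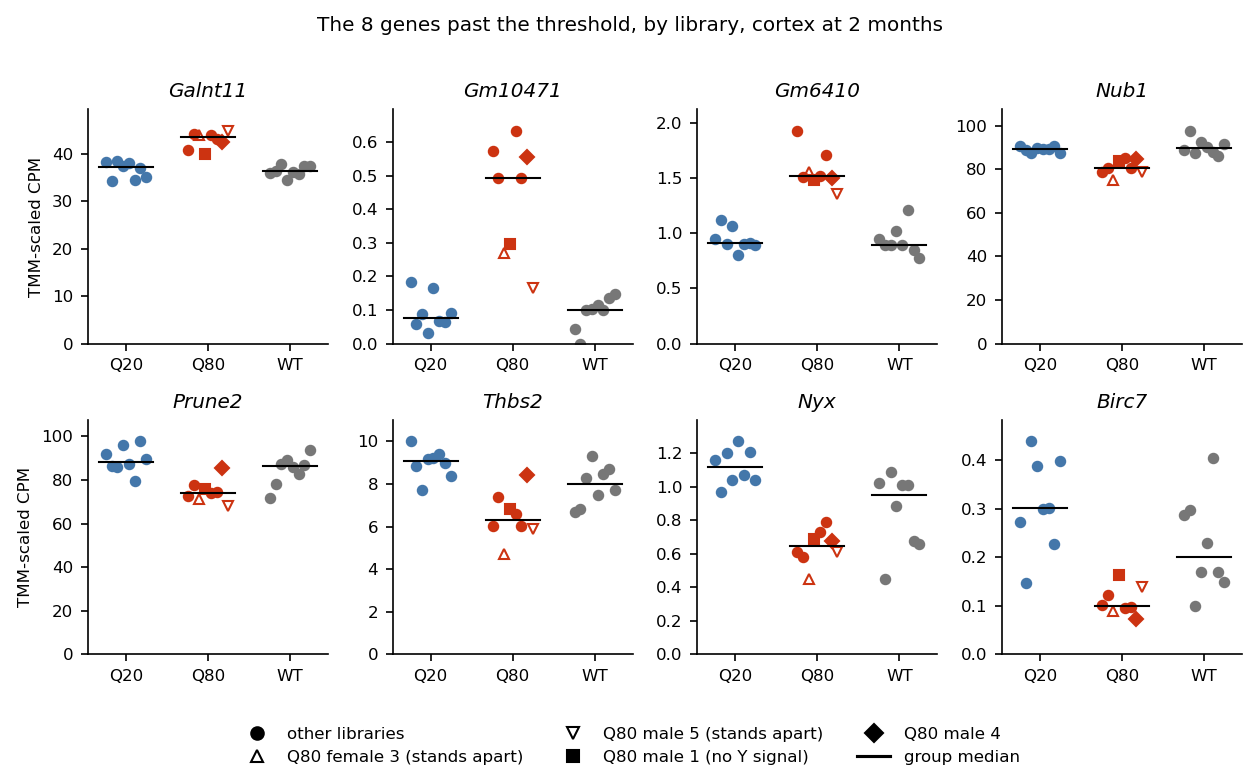
CPM after TMM scaling (y axis, linear from 0) of the 8 genes that passed, with 1 point per library for Q20, Q80 and WT at 2 months and a line at each group's median. Q80 libraries lie wholly above Q20 for Galnt11 and Gm6410 and wholly below for Nub1 and Nyx, and 1 Q80 library, male 4, reaches the Q20 range for Prune2 and Thbs2.

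Other genes of the same segment did not pass in all libraries. Klhl7 passed in 11 of 32 alternatives, Actr3b in 5 and Drc1 in 1, each with DESeq2 among them. Xrcc2 and Insig1 passed in none of the alternatives run. Klhl7, a substrate adaptor of the Cul3 ubiquitin ligase that lies 10.66 Mb before Htt, ran from 85.7 to 101 CPM in Q20 (median 95.3) and from 72.7 to 89 in Q80 (median 81.5). The ranges overlapped, and the difference was -0.22 (adjusted p = 0.057). Actr3b, a relative of the actin-nucleating protein Arp3 that lies 9 Mb before Htt, ran from 69 to 80.7 CPM in Q20 (median 73.9) and from 61.5 to 69.3 in Q80 (median 65.5), with a difference of -0.17 (adjusted p = 0.086). Its highest Q80 library stood just above its lowest Q20 library. Drc1, a subunit of the dynein regulatory complex of motile cilia, lies 4.48 Mb before Htt and ran from 14.4 to 16 CPM in Q20 (median 15) and from 15.4 to 18.7 in Q80 (median 17.6). Its difference of 0.21 did not pass (adjusted p = 0.11), and the Q80 library within the Q20 range was female 3. Xrcc2, a DNA repair gene, had a difference of -0.28 (adjusted p = 0.10), and Insig1, a sterol sensor of the endoplasmic reticulum, -0.18 (adjusted p = 0.18). Garem2, 4.66 Mb before Htt, differed by 0.22 (adjusted p = 0.11), and by -0.02 at 6 months and 0.05 at 10 months. Zfp518b, 3.91 Mb after Htt, differed by -0.24 (adjusted p = 0.16), and by 0.02 at 6 months and -0.03 at 10 months. Garem2 and Zfp518b were not followed through the alternatives.

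The region around Htt held more genes at a low unadjusted p than other chromosomes once the low-correlating libraries were left out. In that fit, of 163 tested genes that start within 10 Mb of Htt, 16.0% had an unadjusted p below 0.05, as did 18.2% of 88 genes at 10 to 20 Mb, 7.29% of genes on the rest of chromosome 5 and 8.54% of 15916 genes on other chromosomes. With all libraries those shares were 22.1%, 28.4%, 20.0% and 18.9%. These are counts of genes that can share reads or move together, and no test was run on them. The Q20 and Q80 mice of 6 and 10 months are other libraries, and the same windows held 10.4%, 8.05%, 6.51% and 4.96% at 6 months (5.1% of all genes) and 14.7%, 13.1%, 4.11% and 5.78% at 10 months (5.82%). Genes with 1 direction and an unadjusted p below 0.05 at all 3 ages were also counted. For 2 months the fit without the low-correlating libraries was used. They numbered 6 of the 163 genes within 10 Mb, 3 of the 88 at 10 to 20 Mb and 11 of the 15916 on other chromosomes. On the rest of chromosome 5 there were 0. The totals are the genes tested in that fit, and not all of them were tested at the later ages.

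The 9 genes of the region with 1 direction at the 3 ages were Galnt11, Gm5067, Gm5862, Gm10471, 5031410I06Rik, Drc1, Klhl7, Fam126a and 6030443J06Rik, all before Htt. Among them Drc1 passed at 6 months (0.26 ± 0.05, adjusted p = 0.034), with 14.4 to 16.6 CPM in Q20 and 15.5 to 20.6 in Q80, and differed by 0.23 at 10 months. Galnt11 differed by 0.15 at 6 months (unadjusted p = 0.0011) and 0.16 at 10 months (unadjusted p = 0.0068) and passed at neither. The Q80 ranges of Galnt11 were wider there than at 2 months, from 32.7 to 41.4 CPM at 6 months and from 33.5 to 46.4 at 10 months, and overlapped Q20. Gm10471 differed by 1.36 and 1.84, and Gm5067 by 1.05 and 1.29, at 6 and 10 months. Klhl7 differed by -0.11 and -0.12. The difference of Nub1 was -0.04 at 6 months (unadjusted p = 0.096) and -0.08 at 10 months (unadjusted p = 0.0077).

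**Figure D3:**
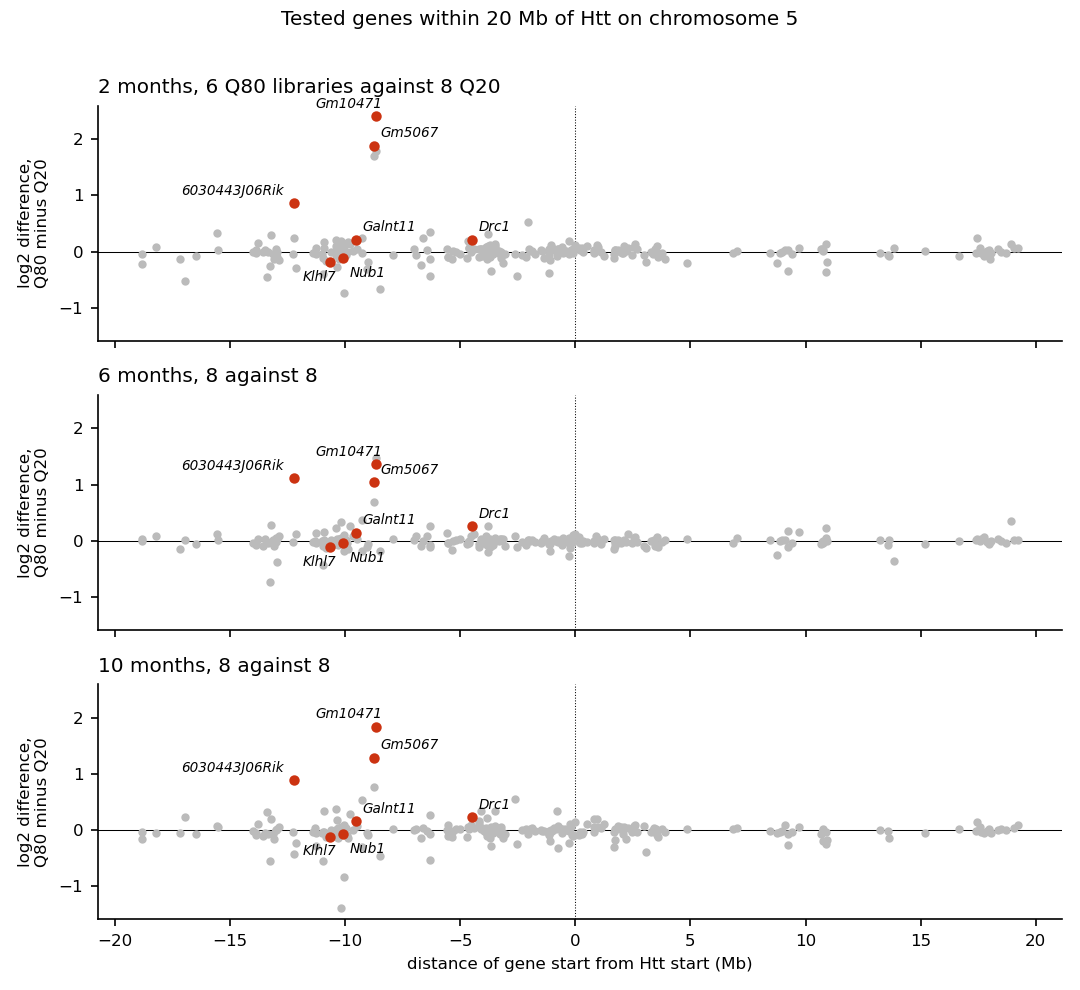
Log2 difference between Q80 and Q20 (y axis) of each tested gene within 20 Mb of Htt on chromosome 5, against the distance of its start from that of Htt in Mb (x axis), at 2 months without the 4 low-correlating libraries, and at 6 and 10 months with all libraries. The labelled genes lie 4.48 to 12.21 Mb before Htt and have 1 sign in the 3 panels. All of them but Nub1 belong to the genes counted for having 1 direction at the 3 ages, so that trait follows from the choice. Some unlabelled genes change sign, such as Garem2 (0.20, -0.02 and 0.05).

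The other longer alleles of the series were compared with the Q80 values as levels only, since they share the Q20 and WT libraries. Median Galnt11 was 38.3 CPM in Q92, 42.2 in Q111, 41.4 in Q140 and 42.1 in Q175 at 2 months, beside 43.4 in Q80 and 37.2 in Q20. Median Actr3b was 72.2, 67, 66.6 and 66.2 CPM in the same order, beside 65.5 in Q80 and 73.9 in Q20. Q92 stood nearest to Q20 in both genes, and its range for Galnt11, 34.6 to 43.2 CPM, overlapped that of Q20. Gm5067 also had its Q92 median nearest to Q20, with 0.493 CPM in Q92 and 1.27, 1.36 and 1.13 in Q111, Q140 and Q175, beside 1.29 in Q80 and 0.418 in Q20. Drc1 was different, with 18.5 CPM in Q92, 18.5 in Q111, 17.7 in Q140 and 17.4 in Q175, beside 17.6 in Q80 and 15 in Q20. The ranges of Q80, Q111, Q140 and Q175 overlapped one another in each of these 4 genes, so the order of their medians was within their spread.

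**Figure D4:**
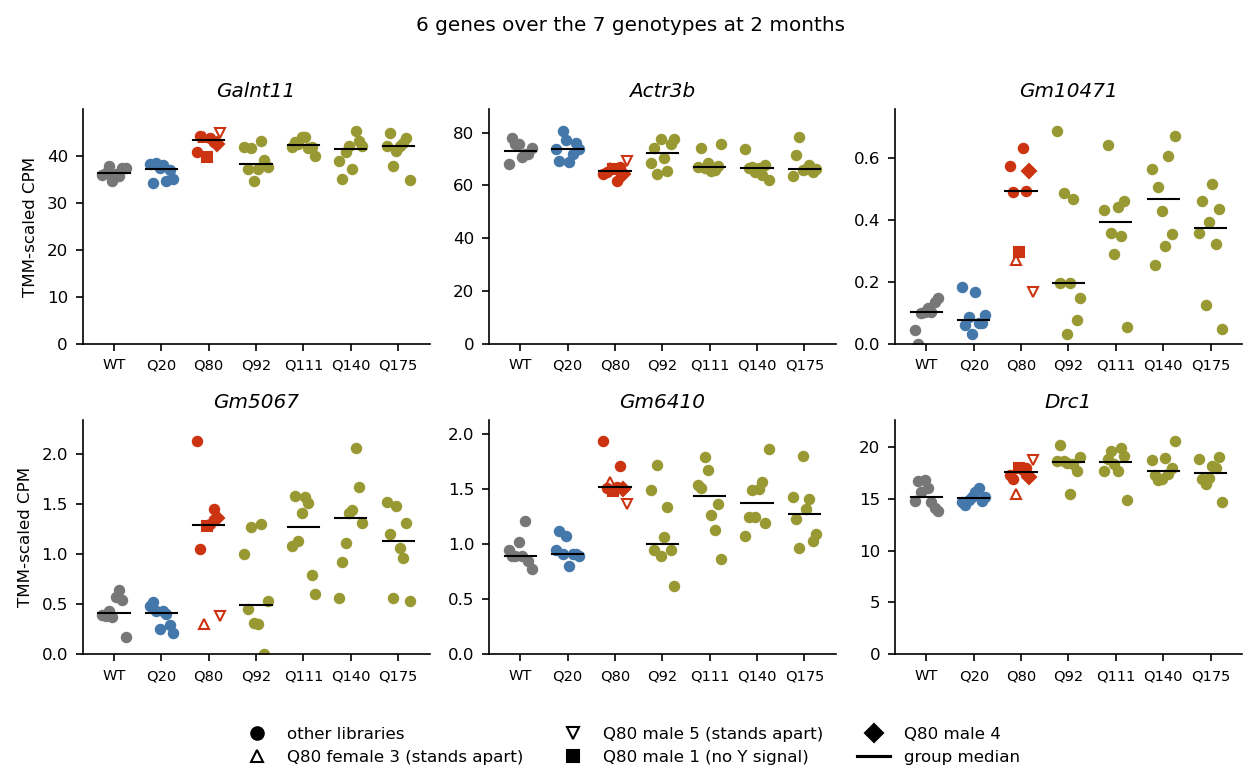
CPM after TMM scaling (y axis, linear from 0) of 6 genes in the 7 genotypes at 2 months (x axis), 1 point per library and a line at each median. The Q80 median sits with those of Q111, Q140 and Q175 in the plotted genes, and the Q92 median sits nearer to WT and Q20 in all of them but Drc1.

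The other 5 genes lie on other chromosomes. Gm6410, a long intergenic noncoding RNA (ENSMUSG00000097308, chromosome 8 from 4678462 to 4688494), ran from 0.8 to 1.12 CPM in Q20 (median 0.91), from 1.36 to 1.93 in Q80 (median 1.51) and from 0.776 to 1.21 in WT (median 0.893). Every Q80 library lay above every Q20 and WT library. Gm6410 rose by 0.75 ± 0.14 (adjusted p = 0.0076), and differed by 0.56 at 6 months (unadjusted p = 0.0024) and 0.52 at 10 months (unadjusted p = 0.0078). Its medians in Q111, Q140 and Q175 at 2 months were 1.44, 1.37 and 1.28 CPM, and 1.0 in Q92, the nearest of these to the Q20 median.

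Prune2 and Thbs2 fell at 2 months and showed smaller differences later. Prune2, a large protein of the nervous system with a BCH domain (ENSMUSG00000039126, chromosome 19 from 16956118 to 17223932), ran from 79.4 to 97.7 CPM in Q20 (median 88.5), from 67.9 to 85.5 in Q80 (median 74.2) and from 71.6 to 93.9 in WT (median 86.3). Of the Q80 libraries male 4 alone lay within the Q20 range, the next Q80 library being at 77.6 CPM. Prune2 fell by 0.25 ± 0.04 on the log2 scale (adjusted p = 0.0038). Thbs2, thrombospondin 2, a secreted matrix glycoprotein that limits vessel growth (ENSMUSG00000023885, chromosome 17 from 14665500 to 14694235), ran from 7.72 to 10 CPM in Q20 (median 9.08), from 4.7 to 8.43 in Q80 (median 6.32) and from 6.69 to 9.3 in WT (median 8.01). Again Q80 male 4 was the 1 library within the Q20 range. Thbs2 fell by 0.47 ± 0.08 (adjusted p = 0.0056). At 6 and 10 months Prune2 differed by -0.06 and -0.07, and Thbs2 by -0.04 and -0.11. Its relative Thbs1, on chromosome 2, ran from 2.66 to 4.05 CPM in Q20 and from 1.08 to 2.96 in Q80, with a difference of -0.66 that did not pass (adjusted p = 0.052).

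Nyx and Birc7, both at low levels, also fell at 2 months. Nyx, nyctalopin, a leucine-rich repeat protein known from retinal bipolar cells (ENSMUSG00000051228, chromosome X from 13466110 to 13489313), ran from 0.969 to 1.27 CPM in Q20 (median 1.12), from 0.449 to 0.789 in Q80 (median 0.644) and from 0.447 to 1.09 in WT (median 0.947). Q80 lay wholly below Q20 and within the WT range. Nyx fell by 0.82 ± 0.15 (adjusted p = 0.0056). Birc7, an inhibitor of apoptosis also called livin (ENSMUSG00000038840, chromosome 2 from 180929023 to 180934010), ran from 0.147 to 0.439 CPM in Q20 (median 0.301), from 0.0727 to 0.164 in Q80 (median 0.1) and from 0.0992 to 0.405 in WT (median 0.2). Its alleles overlapped at 1 library each, Q20 female 2 and Q80 male 1. Birc7 fell by 1.47 ± 0.28 (adjusted p = 0.0088). At 6 and 10 months Nyx differed by 0.10 and 0.03, and Birc7 by -0.11 and -0.31. Lsmem1, a membrane protein gene on chromosome 12, ran from 0.492 to 0.842 CPM in Q20 (median 0.661) and from 0.296 to 0.664 in Q80 (median 0.379), with Q80 male 5 the highest. Its difference was -0.66 (adjusted p = 0.10), and -0.86 without the low-correlating libraries (adjusted p = 0.042).

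Against WT, Galnt11, Gm10471, Gm6410, Abhd1 and Tra2a were higher in Q80 and Nub1 was lower. These were the 6 genes that passed of 17194 (0.0349%), and 4 of them are among the 8, in a comparison that shares the Q80 libraries. The differences from WT were 0.24 for Galnt11, 2.22 for Gm10471, 0.76 for Gm6410 and -0.16 for Nub1. Without the low-correlating libraries, among them WT female 2, 6 genes also passed against WT. Prune2 (-0.17, adjusted p = 0.14), Thbs2 (-0.29, adjusted p = 0.28), Nyx (-0.42, adjusted p = 0.42) and Birc7 (-1.03, adjusted p = 0.24) did not pass against WT. WT against Q20 had 0 genes past the threshold with edgeR (0%), 1 with DESeq2 and 530 at an unadjusted p below 0.05 (3.08%). Abhd1, a hydrolase-family gene near Htt, stood at a median of 2.08 CPM in WT, 5.21 in Q20 and 6.05 in Q80. It thus differed between Q80 and WT (1.34, adjusted p = 0.010) and not past the threshold between Q80 and Q20 (0.45, adjusted p = 0.29).

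Markers of the olfactory bulb, a tissue next to the cortex at its front end, were lower in most Q80 libraries. In bulk RNA, fewer cells of a type and less RNA per cell cannot be told apart. All 13 listed markers were tested and 0 passed with edgeR (background 0.0465%), while 10 were lower at an unadjusted p below 0.05 (7.71% of all genes were). The list's median difference was -0.95, beside -0.003 over all genes tested, and -0.79 without the low-correlating libraries, when 6 were lower (3.87% of all genes). Without Q80 male 4, 12 were lower (9.9% of all genes), the median was -1.53, and Cdhr1 passed (-1.67, adjusted p = 0.049). Male 4 was the Q80 library highest in these markers, so leaving it out had to lower the Q80 levels and adds no support. Cdhr1, a protocadherin of mitral and tufted cells, ran from 10.4 to 33.6 CPM in Q20 (median 23.6) and from 4.67 to 28.9 in Q80 (median 6.21), with a difference of -1.19 (adjusted p = 0.17). Th, the enzyme of dopamine synthesis, ran from 3.05 to 10.9 CPM in Q20 (median 7.61) and from 1.81 to 7.68 in Q80 (median 2.09), with a difference of -1.17 (adjusted p = 0.17). In both genes the high Q80 library was male 4 and the other 7 lay low in or below the Q20 range.

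The summed level of these 13 markers ran from 98.9 to 179 CPM in Q20 (median 144), from 75.7 to 148 in Q80 (median 87.8) and from 83.5 to 163 in WT (median 101). Etv1, which is also on the list of deep cortical layer markers, was the largest part, with a mean of 61.8 CPM in Q20 and 52.5 in Q80. Q80 male 4 held the 148 CPM, and the other Q80 libraries lay between 75.7 and 104. Omp and S100a5, markers of the bulb's sensory input, were at low levels. Omp had a mean of 3.69 CPM in Q20 and 0.861 in Q80 (-2.03, adjusted p = 0.19). S100a5 had means of 1.76 and 0.401 CPM (-1.98, adjusted p = 0.31) and was at 0 CPM in 6 of 8 Q80 libraries. With the mean log2 CPM of these markers as a covariate, chosen after the values were seen, 2 genes passed. These were Nyx (-0.87, adjusted p = 0.020) and Birc7 (-1.70, adjusted p = 0.018). With the covariate Galnt11 kept 0.22 and Nub1 -0.14, and neither passed (adjusted p = 0.14 and 0.13). Gm6410 stood at 0.69 (adjusted p = 0.13), Prune2 at -0.18 (adjusted p = 0.14) and Thbs2 at -0.37 (adjusted p = 0.18). At 6 months 5 of the markers were lower at an unadjusted p below 0.05 (2.6% of all genes), with a median of -0.79, and at 10 months 0 were (2.71% of all genes), with a median of -0.06. The part of the olfactory bulb level in the other differences was not tested beyond this covariate.

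**Figure D5:**
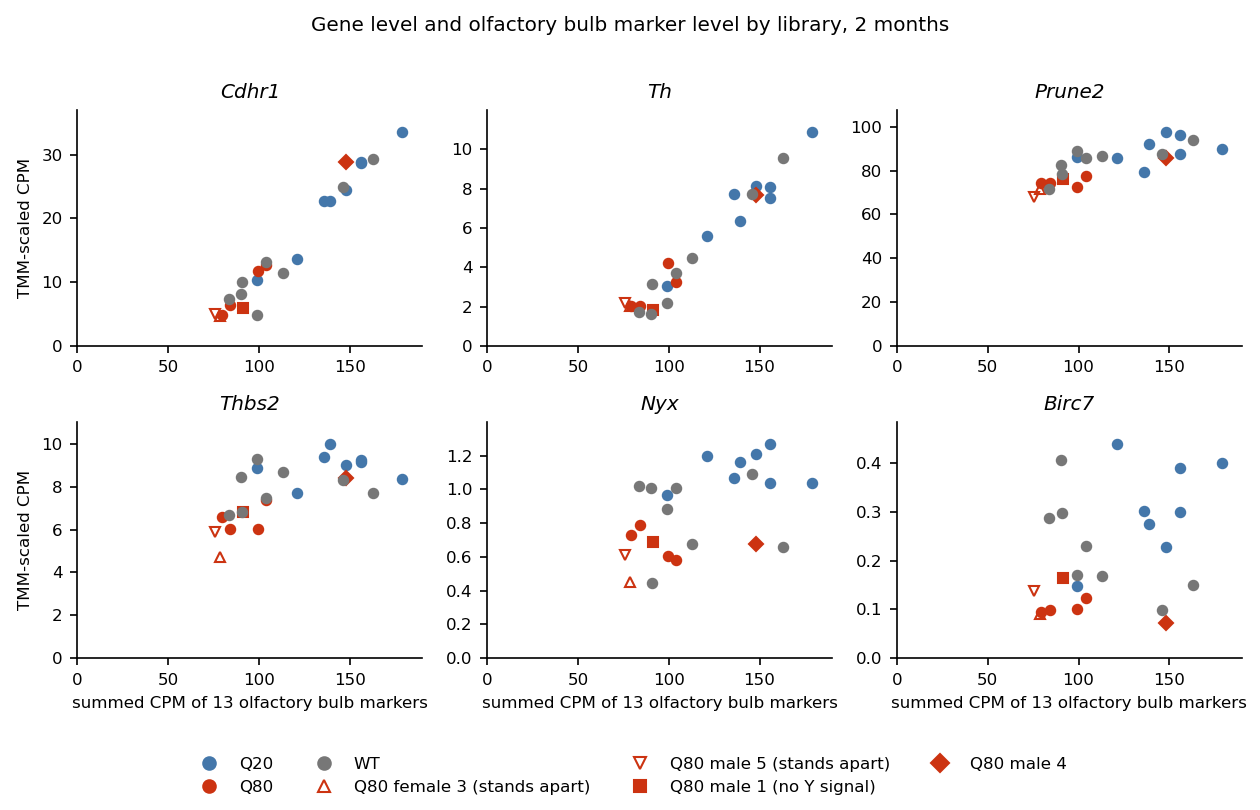
CPM after TMM scaling (y axis, linear from 0) of 6 genes against the summed CPM of 13 olfactory bulb markers (x axis), 1 point per Q20, Q80 or WT library at 2 months. Cdhr1 and Th are themselves markers and are high where the sum is high, Prune2 and Thbs2 are low in the Q80 libraries that are low in the sum, and Nyx and Birc7 are as low in Q80 male 4, at 148 CPM, as in the other Q80 libraries.

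None of the oligodendrocyte and astrocyte markers passed in all libraries with edgeR, and those at an unadjusted p below 0.05 in that fit were all higher in Q80. Of 24 oligodendrocyte markers 14 were higher at an unadjusted p below 0.05 (11.2% of all genes were), with a median difference of 0.14, and 7 without the low-correlating libraries (4.68% of all genes), with a median of 0.09. Mbp, myelin basic protein, ran from 1733 to 2301 CPM in Q20 (median 1977) and from 2102 to 2624 in Q80 (median 2217), with a difference of 0.18 (adjusted p = 0.15). Bcas1, a gene of oligodendrocytes that are starting to myelinate, ran from 110 to 162 CPM in Q20 and from 139 to 209 in Q80 (0.23, adjusted p = 0.10). The ranges of both overlapped. Of 16 astrocyte markers 6 were higher, and 7 without the low-correlating libraries, with medians of 0.07 and 0.09. Without Q80 male 4, 14 oligodendrocyte and 7 astrocyte markers were higher (13.3% of all genes), and Bcas1 (0.25, adjusted p = 0.033) and Aldoc, an aldolase of astrocytes (0.21, adjusted p = 0.037), passed. DESeq2 on all libraries called Bcas1, Aldoc and Aldh1l1. Aldh1l1, a folate enzyme used as an astrocyte marker, ran from 57.4 to 64.4 CPM in Q20 and from 63.2 to 73.8 in Q80 (0.17, adjusted p = 0.11). Glul, glutamine synthetase, ran from 1454 to 1790 CPM in Q20 and from 1668 to 1830 in Q80 (0.12, adjusted p = 0.14). At 6 months the medians of the oligodendrocyte and astrocyte lists were -0.03 and -0.03, with 0 higher in either (2.5% of all genes), and at 10 months -0.02 and 0.05, with 1 higher in each.

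No listed marker of other neighbouring tissues or cells passed in all libraries with edgeR, and the meninges and fibroblast list was lower in median. Counts here are at an unadjusted p below 0.05, where 11.2% of all genes were higher and 7.71% lower, and 4.68% and 3.87% without the low-correlating libraries. Of 16 markers of meninges and fibroblasts, 0 passed with edgeR and 4 were lower. The number was 6 without the low-correlating libraries and 1 without Q80 male 4, where 9.9% of all genes were lower. The list's medians were -0.19, -0.24 and -0.19 in that order. The growth factor Igf2 ran from 48.3 to 61.1 CPM in Q20 and from 38.6 to 49.8 in Q80 (-0.31, adjusted p = 0.24), and Aebp1, a collagen-binding matrix protein, from 14.6 to 18.7 and from 12.6 to 15.6 (-0.28, adjusted p = 0.17). The choroid plexus list had a median of -0.66, with Ttr, its thyroid hormone carrier, between 4.73 and 153 CPM in Q20 and between 2.37 and 30.8 in Q80, and 1 of 15 members lower at an unadjusted p below 0.05. Of 22 interneuron markers 4 were higher and 6 lower, and 0 and 3 without the low-correlating libraries. Calb2, calretinin, which olfactory bulb cells use too, ran from 23.2 to 38.9 CPM in Q20 and from 14.9 to 28.2 in Q80 (-0.59, adjusted p = 0.17). Gad1, the enzyme of GABA synthesis, ran from 364 to 441 CPM and from 329 to 416 (-0.18, adjusted p = 0.17). Of 20 microglia markers 4 were higher and 1 lower, and 1 and 2 without the low-correlating libraries.

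No gene of the respiratory chain or glutamate receptor lists passed in all libraries with edgeR, and their counts at an unadjusted p below 0.05 were lower without the low-correlating libraries. Of all genes, 11.2% were higher and 7.71% lower with all libraries, and 4.68% and 3.87% without. Of 13 mitochondrially encoded transcripts 10 were higher with all libraries and 0 without, and of 26 nuclear genes of the respiratory chain 9 were higher with all and 1 without. The summed level of the mitochondrial transcripts was 145550 to 161550 CPM in Q80 female 3 and male 5 and 103215 to 114441 in the other Q80 libraries. It was 90757 to 130189 in Q20 and 94261 to 114844 in WT, whose female 2 is also low-correlating. Of 22 glutamate receptor genes 6 were lower with all libraries and 0 without. Their summed level was 2368 to 2508 CPM in female 3 and male 5, 3129 to 3364 in the other Q80 libraries and 3058 to 3396 in Q20. Gria2, an AMPA receptor subunit, had a difference of -0.15 with all libraries and -0.04 without, and Cox7c, a subunit of cytochrome c oxidase, 0.31 (adjusted p = 0.11) and 0.15 (adjusted p = 0.34). Cox7c passed without Q80 male 4 (0.34, adjusted p = 0.043) and with DESeq2.

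Pathways known from Huntington's disease showed no member past the threshold with edgeR in all libraries at 2 months. Counts at an unadjusted p below 0.05 follow, with 11.2% of all genes higher and 7.71% lower, and 4.68% and 3.87% without the low-correlating libraries. Of 22 markers of striatal projection neurons, the cells most affected in the disease, 2 were higher with all libraries and 0 without the low-correlating ones, with medians of 0.08 and 0.03. Ppp1r1b, the dopamine-regulated phosphatase inhibitor DARPP-32, ran from 104 to 151 CPM in Q20 and from 118 to 197 in Q80 (0.23, adjusted p = 0.23, and 0.06 without). Of 15 genes of mismatch repair and repeat instability 7 were lower with all libraries and 2 without, with medians of -0.10 and -0.06. Of 21 partners of huntingtin 7 were lower and 2 higher with all libraries, and 2 lower and 1 higher without. Of 24 genes of the unfolded protein and integrated stress response 9 were higher with all and 2 without, led by Phgdh of serine synthesis (57.1 to 65.7 CPM in Q20 and 61.9 to 82.4 in Q80, 0.21, adjusted p = 0.086). Phgdh passed without Q80 male 4 (0.22, adjusted p = 0.033), with the L token of library names as a term (0.25, adjusted p = 0.022) and with DESeq2.

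Among 41 potassium channel genes 4 were higher and 5 lower at an unadjusted p below 0.05 (11.2% and 7.71% of all genes), and 5 and 3 without the low-correlating libraries (4.68% and 3.87%). Kcna4, a voltage-gated channel, ran from 17.9 to 23 CPM in Q20 and from 16.7 to 20.3 in Q80 (-0.24, adjusted p = 0.097). Kcna4 passed without Q80 male 4 (-0.26, adjusted p = 0.033), with the L token as a term (-0.29, adjusted p = 0.011) and with DESeq2. Of 27 immediate early genes, which neurons transcribe after activity, 0 differed at an unadjusted p below 0.05 at 2 months, and 16 were higher at 10 months (3.12% of all genes) with a median of 0.38. Their summed level at 2 months ran from 1185 to 2114 CPM in Q20 and from 1198 to 2060 in Q80, nearly the same range. Of 19 heat shock genes 5 were higher, and 3 without the low-correlating libraries. Cryab, a small heat shock protein of glia, ran from 56.3 to 70.8 CPM in Q20 and from 65.9 to 102 in Q80 (0.30, adjusted p = 0.11), and passed with DESeq2.

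None of the 8 genes passed between the same alleles at 6 or 10 months. At 6 months 2 of 17611 genes passed (0.0114%), the X-linked gene Cdr1 (0.30) and Drc1. At 10 months 4 of 17219 passed (0.0232%), all higher. They were the activity-regulated genes Nptx2 (0.55) and Ptgs2 (0.50) and the transcription factor genes Pknox1 (0.26) and Gmeb2 (0.20), whose differences at 2 months were 0.11, -0.07, -0.04 and 0.01. Tested as interactions, 0 of 17271 genes differed between 2 and 6 months with edgeR (0%; 2090 at an unadjusted p below 0.05, 12.1%) or between 2 and 10 months (2173, 12.6%). DESeq2 gave 0 and 2. Nyx had the smallest p against 6 months, where the difference at 2 months minus that at 6 months was -0.90 (unadjusted p = 2.4e-05, adjusted p = 0.38). Against 10 months the smallest p belonged to F13a1, a coagulation factor subunit made by macrophages, and Mrc1, the mannose receptor of macrophages at brain borders. F13a1 stood at a mean of 2.28 CPM in Q20 and 1.43 in Q80 at 2 months (-0.66, adjusted p = 0.16) and differed by 0.31 at 10 months. Mrc1 stood at a mean of 4.5 CPM in Q20 and 2.86 in Q80 at 2 months (-0.64, adjusted p = 0.16) and differed by 0.27 at 10 months. The differences between these ages were -1.02 for F13a1 and -0.93 for Mrc1 (both with an adjusted p = 0.12), and neither passed. Between females and males 0 of 17194 genes differed in the response at 2 months with edgeR, 0 with DESeq2, and 266 had an unadjusted p below 0.05 (1.55%). Without Q80 male 1, which matched neither sex label, 0 passed and 249 had an unadjusted p below 0.05. The smallest p of the latter was that of Esrrb, a nuclear receptor gene, with -0.64 in females and 0.11 in males (adjusted p = 1).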

How the data were processed

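The values deposited by the authors were estimated counts, unscaled and with a non-zero decimal part in 17.7% of cases, and FPKM, which divides by gene length and library total. CASAVA 1.8.2 is listed in the submitters' processing notes, and which tools and genome build gave the counts is not given in the sources used here. GENCODE M21 gave a symbol for 37693 of the 39179 gene IDs, and IDs with no symbol took 0.258% of the counts. Gene positions are those of GENCODE M21 (GRCm38).

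The counts were rounded and tested with edgeR 4.0.16 in R 4.3.3 (filterByExpr by genotype, min.count 10 and min.total.count 15, TMM, estimateDisp, robust glmQLFit and two-sided glmQLFTest) in all 56 libraries of an age with sex as a term. Low-count genes were thus kept or left out by their counts in all genotypes of the age. The biological coefficient of variation, edgeR's measure of the spread between libraries, came to 0.115, 0.069 and 0.098 at 2, 6 and 10 months. Group levels are CPM after TMM. Age and sex differences were tested as interactions. No pair of libraries within Q20 or Q80 agreed within counting error (chi-square over degrees of freedom was 4.29 or more). The test was also run on simulated counts. These held no length shift and no olfactory bulb difference between libraries, so that run does not bear on either.

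The comparison, the gene lists and the named genes were chosen with earlier results of these data known. The genes named were all those that passed, Htt, sex-linked genes and up to 4 members of each list by smallest p. Up to 3 genes of each interaction were added. Genes within 10 Mb of Htt were taken from those at a low unadjusted p, not strictly in order of p. The view over 20 Mb and the genes Gm5067, Lsmem1, Thbs1, Klhl7, Abhd1, Fam126a and 6030443J06Rik were chosen after their values were seen. So were Gm7361, Garem2 and Zfp518b. Alternatives were DESeq2 1.42.0, its size factors, no low-count filter, no sex term, a replicate block, only the groups compared, the L token and number in library names as terms, the liver level as a covariate, limma 3.58.1 on log2(FPKM + 0.1) and log2(FPKM + 1) where FPKM averaged 0.1 or more, and fits that dropped each library, Q80 male 1, or the libraries that correlated least. Fits with the olfactory bulb level, and without both kinds of library, were added after the values were seen. Figures were drawn with Python 3.11.15, pandas 2.3.3 and matplotlib 3.10.9.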

Additional observations from a re-analysis of the deposited data

Results flagged for a closer look

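In 112 sets of 8 libraries, each a described gene or a list's summed level in Q20 or Q80 at 2 months, 5 had a highest or lowest library far from its neighbour relative to the range. Chance gives about 1 in 20 such sets. The olfactory bulb markers summed to 148 CPM in Q80 male 4 and to between 75.7 and 104 CPM in the other Q80 libraries. Lsmem1 stood at 0.664 CPM in Q80 male 5 and at 0.296 to 0.449 in the others. The liver list summed to 405 CPM in Q80 female 3 and to 264 to 330 in the others. Abhd1 stood at 1.72 CPM in Q20 female 4, within the range of most WT libraries, and at 4.36 to 5.51 in the other Q20 libraries. The striatal projection neuron markers summed to 1822 CPM in Q20 female 2 and to 1469 to 1614 in the other Q20 libraries.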

How the results depend on the processing

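Of 17194 genes 8 passed between Q80 and Q20 at 2 months, and that number ranged from 2 to 96 over the alternatives. It was 73 with DESeq2 (48 higher and 25 lower), 40 with a term for the L token in library names, 16 with the liver level as a covariate, 14 and 13 with limma on log2(FPKM + 0.1) and log2(FPKM + 1), and 17 without Q80 male 1. It was 2 with only the Q80 and Q20 groups in the fit, 2 with the olfactory bulb level as a covariate, 4 with that covariate and without the libraries that correlated least, and 3 without those and Q80 male 1. It was 7 without the low-count filter, 8 without the sex term, and 9 without the libraries that correlated least. Leaving out each library in turn gave 5 (without Q20 male 4) to 96 (without Q80 male 4) genes, with 13 without Q20 male 2, 14 without Q80 female 1 and 15 without Q80 female 2. At 6 months 2 genes passed, and 1 with only the groups compared. At 10 months 4 passed, 12 with DESeq2, 0 with only the groups compared and 10 without the libraries that correlated least. Against WT 6 passed, 22 with DESeq2, 1 with only the groups compared and 10 without Q80 male 1. WT against Q20 gave 0, 1 with DESeq2 and 1 without the libraries that correlated least. The age difference between 2 and 10 months gave 0, and 2 with DESeq2. The cause of these changes was not tested. Of 18 genes followed through these alternatives, 17 kept their direction in each. Htt, which did not pass in any, changed from -0.08 to 0.112 without the libraries that correlated least, 0.088 without those and Q80 male 1, and 0.104 without those and with the olfactory bulb level, and ran from -0.13 to 0.012 when each library was left out. Galnt11 did not pass in 8 of its alternatives, Gm10471 in 7, Nub1 in 5, Prune2 and Thbs2 in 4, Gm6410 in 2, and Nyx and Birc7 in 1. Those numbers leave out fits that gave a gene no adjusted p, such as DESeq2 for Gm10471, Gm6410, Nyx and Birc7.

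The correlation of the deviations of same-numbered Q80 and Q20 libraries ran from -0.203 to 0.23 over 7 pairs and exceeded 0.1 in 4 but not in all, and the numbers were not taken to pair the samples. With a replicate block 9 genes passed at 2 months, 3 higher and 6 lower, 3 at 6 months, 4 at 10 months, 4 against WT and 0 between WT and Q20.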

Other observations

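Abhd1, a chromosome 5 gene, had 1 library apart from the other 7 in each control group at 2 months. In WT it stood at 1.44 to 2.31 CPM in 7 libraries and at 7.09 CPM in female 2. In Q20 it stood at 4.36 to 5.51 CPM in 7 libraries and at 1.72 CPM in female 4. WT female 2 is among the libraries of that age that correlated least with the others, and Q20 female 4 is not.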
